A study of Rattus norvegicus with 50 samples.

Results

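Microglia, the resident macrophages of the brain, were followed through 10 of their marker genes, *Cx3cr1*, *P2ry12*, *Csf1r*, *Trem2*, *Tyrobp*, *Tmem119*, *Aif1*, *C1qa*, *C1qb* and *C1qc*. The genes were chosen by their annotated symbols, whatever their values. Each of the 10 had 1 transcript cluster, the group of probes that measures a gene on the Affymetrix Rat Clariom S array, among the 15049 clusters with 1 gene symbol that were tested. Expression was measured in the hippocampus and, from blood, in peripheral blood mononuclear cells (PBMC) of male Wistar rats aged 3.5 months, with 25 arrays per tissue, 1 for each rat. The 8 normal-weight (NW) rats were kept on a control diet in which fat made up 10% of the calories. For 11 weeks, the 8 metabolically obese, normal-weight (MONW) rats had a diet in which it made up 60%, in amounts that matched the calories of NW. The 9 MONW-Lep rats were fed as MONW after oral leptin on days 1 to 20 of life, at 5 times the amount taken daily with milk, while NW and MONW rats were given its vehicle, Captisol. None of the groups carried a transgene or a deletion, and no leptin-treated group on the low-fat diet was analysed here. The pups came from 8 litters, which were cut to 10 pups each, and were caged singly after weaning. The litter of each rat was not given in the sources used here, so the spread between rats includes that between litters.

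Microglia depend on the kinase receptor Csf1r for survival, and sense neurons through the chemokine receptor Cx3cr1, whose ligand neurons make, and through P2ry12, a receptor for ADP. Trem2 binds lipids and signals through the adaptor Tyrobp. C1qa, C1qb and C1qc form C1q, the first component of the classical complement pathway, which tags synapses and debris for removal. Of these genes, *Tmem119* is the most restricted to microglia within the brain, whereas *Csf1r*, *Cx3cr1*, *Tyrobp* and *Aif1* are also used by blood monocytes and *P2ry12* by platelets, which is why PBMC served as the contrast. High-fat feeding is widely used as a challenge to these cells. In pieces of whole tissue, fewer microglia and less RNA per microglia cannot be told apart.

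Promoters of 5 of the 10 genes were among the 33469 promoters of the RefSeq table for the rat build GRCr8. The 250 bases before the start are shown for *Csf1r* and *Cx3cr1* and for *Trem2* and *C1qa*, since the first pair varied together over the PBMC arrays and the second over the arrays of both tissues. Capitals mark GAGGAA, the core that the myeloid factor PU.1 binds, read on either strand (TTCCTC on the printed strand), and the site of MEF2 factors, searched as CTA and TAG with any 4 bases between them.
Csf1r (chr18:56834129-56834378, plus strand): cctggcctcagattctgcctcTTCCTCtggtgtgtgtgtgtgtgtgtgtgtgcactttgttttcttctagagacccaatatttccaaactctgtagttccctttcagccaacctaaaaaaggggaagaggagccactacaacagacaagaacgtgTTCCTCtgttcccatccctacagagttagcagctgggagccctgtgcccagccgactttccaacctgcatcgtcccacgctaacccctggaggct
Cx3cr1 (chr8:128677067-128677316, minus strand): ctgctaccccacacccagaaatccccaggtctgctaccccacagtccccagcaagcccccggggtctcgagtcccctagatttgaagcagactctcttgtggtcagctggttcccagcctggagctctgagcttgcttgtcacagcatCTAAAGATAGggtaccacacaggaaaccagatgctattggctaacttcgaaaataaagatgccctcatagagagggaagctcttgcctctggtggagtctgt
Trem2 (chr9:20151780-20152029, minus strand): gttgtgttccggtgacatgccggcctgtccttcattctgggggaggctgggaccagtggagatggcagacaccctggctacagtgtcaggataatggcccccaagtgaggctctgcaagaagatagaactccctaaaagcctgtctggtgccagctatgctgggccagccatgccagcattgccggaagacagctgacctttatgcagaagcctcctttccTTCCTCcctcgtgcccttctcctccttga
C1qa (chr5:154419934-154420183, minus strand): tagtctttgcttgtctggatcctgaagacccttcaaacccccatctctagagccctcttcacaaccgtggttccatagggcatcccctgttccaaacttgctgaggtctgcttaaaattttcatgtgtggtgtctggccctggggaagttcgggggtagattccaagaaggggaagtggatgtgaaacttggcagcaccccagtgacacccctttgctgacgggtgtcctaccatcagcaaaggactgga
*Csf1r* held TTCCTC 229 and 95 bases before its start and *Trem2* 29 bases before its start, while *Cx3cr1* held a MEF2 site 102 bases before its start. These starts need not be the outer end of the annotated gene. *Cx3cr1* spans 128661294 to 128679048 and holds its whole window, and *Csf1r* begins at 56834152 and holds most of its own. Over the window from 250 bases before to 50 after the start, GAGGAA was found in 3 of the 5 promoters (*C1qb*, *Trem2* and *Csf1r*) and in 27.6% of all promoters of the table. The MEF2 site was found in 1 of the 5 and in 3.84% of all, and the longer GAGGAAGT in 0 of the 5 and in 2.42% of all. *C1qa*, *C1qc* and *C1qb* lie next to each other on chromosome 5 (GRCr8), from 154402276, the first base of *C1qb*, to 154419933, the last base of *C1qa*.

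All values are log2 values from RMA. The hippocampal arrays carried the markers of the tissue: *Snap25*, a neuronal synaptic protein, lay at 12.92 to 13.12 and *Gfap*, the astrocyte filament, at 10.47 to 11.06, against 5.34 to 7.69 and 4.49 to 6.36 in PBMC. *Ptprc*, the pan-leukocyte gene, lay at 4.28 to 5.52 in the hippocampus and at 11.24 to 12.13 in PBMC. Against this, the microglia genes lay close to background. In the hippocampus, only *Cx3cr1* passed the 95th percentile of the 1153 rows named as negative controls in most arrays (19 of 25). *P2ry12* did so in 3 arrays, *C1qa* in 1 and the other 7 genes in 0, though the median array still placed each gene above 80.8% to 95.2% of those rows. Beside the 23 antigenomic background rows of the array, which differ in GC content, *Cx3cr1* was above every row in 25 of 25 arrays, *C1qa* in 20, *P2ry12* in 8, *C1qb* in 5 and the other 6 in 0. One array, MONW replicate 7, stood apart (median correlation with the other arrays of 0.978). It held the highest mean of the striatum markers (9.25, against medians of 6.87 in NW and 6.82 in MONW-Lep).

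The first question was whether the high-fat diet, with or without early leptin, changed these genes in the hippocampus. It was asked for each gene with limma over all 25 hippocampal arrays at an unadjusted p under 0.05, the threshold of the study's methods, and with an exact two-sided permutation test over arrays. None of the 10 genes passed in any of the 3 comparisons (0 of 30 tests by limma, 0 of 30 by the exact test), and the ranges of the groups overlapped in all 30. For all genes, 3.08% passed in MONW versus NW, 2.34% in MONW-Lep versus NW and 3.1% in MONW-Lep versus MONW. None of the 15049 passed a Benjamini-Hochberg adjusted p under 0.05 in limma, where 463, 352 and 466 passed the unadjusted threshold. The 30 differences of the microglia genes ran from -0.16 (*C1qb*, MONW versus NW) to 0.18 (*Csf1r*, MONW-Lep versus MONW). Their 95% intervals ran from -0.41 to 0.39, which is a fold of up to 1.33 in either direction. This bounds the array values and not the RNA. All genes but *Cx3cr1* lay below the 95th percentile of the negative control rows in most hippocampal arrays.

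**Figure D1:**
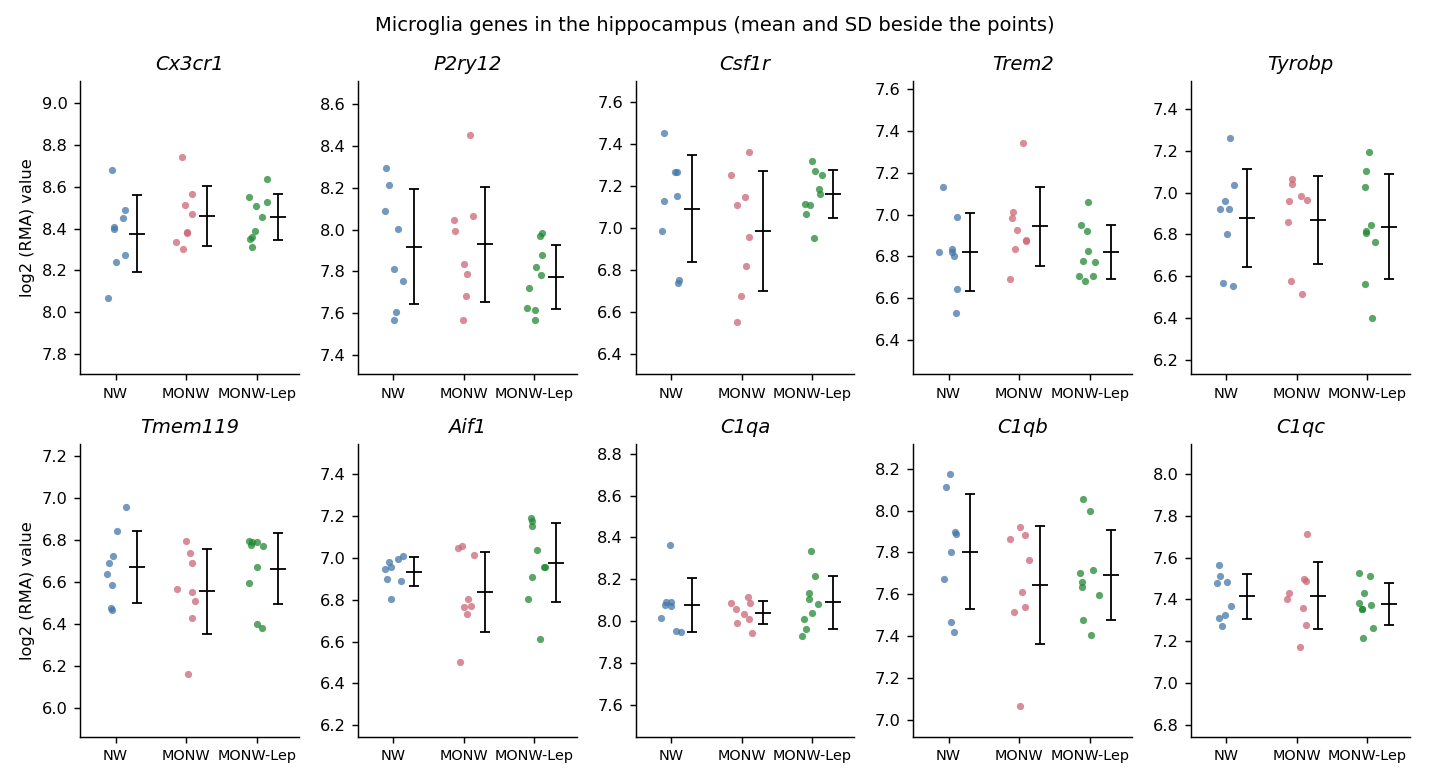
Hippocampal level of each microglia gene (y axis, log2 RMA value, the same span in every panel), with 1 point per rat in NW, MONW and MONW-Lep and the group mean with its SD as a black bar. The groups overlap in every panel, and MONW-Lep *Csf1r* and NW *Aif1* form narrow bands (SD of 0.11 and 0.07).

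*Cx3cr1*, the fractalkine receptor, had a lowest, median and highest value of 8.07, 8.40 and 8.68 in NW, 8.30, 8.43 and 8.74 in MONW and 8.31, 8.46 and 8.64 in MONW-Lep. The 3 ranges overlapped, and the lowest array was in NW. The difference was 0.09 for MONW versus NW (95% interval -0.07 to 0.24), 0.08 for MONW-Lep versus NW (-0.07 to 0.23) and -0.01 for MONW-Lep versus MONW (-0.16 to 0.14). Its neuronal ligand *Cx3cl1* did not pass in any comparison either, with a mean of 10.17 in NW, 10.27 in MONW and 10.23 in MONW-Lep.

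*P2ry12*, the ADP receptor of resting microglia, ran over 7.57, 7.91 and 8.30 (lowest, median, highest) in NW, 7.57, 7.91 and 8.45 in MONW and 7.57, 7.78 and 7.98 in MONW-Lep. The lowest arrays were alike in the 3 groups and the high end was shorter in MONW-Lep, where 2 of 9 rats were above the NW median. MONW-Lep differed from NW by -0.14 (95% interval -0.37 to 0.08, exact p = 0.191) and from MONW by -0.16 (-0.38 to 0.07, exact p = 0.165), and MONW from NW by 0.01 (-0.22 to 0.24).

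*Csf1r*, the receptor on which microglial survival rests, had values of 6.74, 7.14 and 7.45 (lowest, median, highest) in NW, 6.55, 7.03 and 7.36 in MONW and 6.96, 7.17 and 7.32 in MONW-Lep. All MONW-Lep rats lay inside the range of the other groups, and 8 of 9 were above the MONW median. The difference of MONW-Lep from MONW was 0.18 (95% interval -0.04 to 0.39, exact p = 0.112), that of MONW from NW -0.11 (-0.33 to 0.11, exact p = 0.428) and that of MONW-Lep from NW 0.07 (-0.15 to 0.28). Without MONW replicate 1, *Csf1r* passed the unadjusted threshold in MONW-Lep versus MONW (difference 0.23). The ligands of this receptor did not pass in any comparison. *Csf1* averaged 7.86 in NW, 7.86 in MONW and 7.88 in MONW-Lep, and *Il34* 7.91, 7.96 and 7.99.

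*Trem2*, the lipid receptor of phagocytic microglia, ran over 6.53, 6.82 and 7.13 in NW, 6.69, 6.90 and 7.34 in MONW and 6.68, 6.78 and 7.06 in MONW-Lep (lowest, median, highest). In MONW, 7 of 8 rats were above the NW median and 1 above every NW rat. The difference was 0.12 for MONW versus NW (95% interval -0.05 to 0.29, exact p = 0.224) and -0.12 for MONW-Lep versus MONW (-0.29 to 0.05, exact p = 0.138), which share the MONW arrays. Its adaptor *Tyrobp* had means of 6.88 ± 0.24 (SD, n = 8) in NW, 6.87 ± 0.21 (n = 8) in MONW and 6.84 ± 0.25 (n = 9) in MONW-Lep.

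*Tmem119*, a transmembrane protein used to tell microglia from other macrophages, averaged 6.67 ± 0.17 (SD, n = 8) in NW, 6.55 ± 0.20 (n = 8) in MONW and 6.66 ± 0.17 (n = 9) in MONW-Lep. MONW differed from NW by -0.12 (95% interval -0.30 to 0.06, exact p = 0.234) and MONW-Lep from MONW by 0.11 (-0.07 to 0.29, exact p = 0.246). *Aif1*, which encodes the cytoskeletal protein Iba1 used to stain microglia, had values of 6.80, 6.95 and 7.01 in NW, 6.50, 6.79 and 7.06 in MONW and 6.61, 6.96 and 7.19 in MONW-Lep. The NW rats lay close together, and both high-fat groups spread below and above them. *Aif1* gave the smallest p of the 30 tests, for MONW-Lep versus MONW (difference 0.14, 95% interval -0.02 to 0.30, limma p = 0.0854, adjusted p = 0.999, exact p = 0.149), with 8 of 9 MONW-Lep rats above the MONW median. It passed the unadjusted threshold without MONW replicate 1 (0.17), without MONW replicate 3 (0.17) or without MONW-Lep replicate 5 (0.19).

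The complement genes, which make the 3 chains of C1q, held both the steadiest and the most variable of the 10. *C1qa* averaged 8.08 ± 0.13 (SD, n = 8) in NW, 8.04 ± 0.06 (n = 8) in MONW and 8.09 ± 0.13 (n = 9) in MONW-Lep, and *C1qc* 7.41 ± 0.11, 7.42 ± 0.16 and 7.38 ± 0.10 in the same order. Within groups, 10.7% of all genes varied less than *C1qa* and 17.7% less than *C1qc*, against 87.2% for *C1qb*. *C1qb* ran over 7.42, 7.84 and 8.17 in NW, 7.07, 7.69 and 7.92 in MONW and 7.41, 7.66 and 8.06 in MONW-Lep (lowest, median, highest). The lowest value came from MONW replicate 7, the array that stood apart. MONW differed from NW by -0.16 (95% interval -0.41 to 0.09, exact p = 0.275) and MONW-Lep from NW by -0.11 (-0.35 to 0.13, exact p = 0.359), with 3 of 8 and 2 of 9 rats above the NW median.

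**Figure D2:**
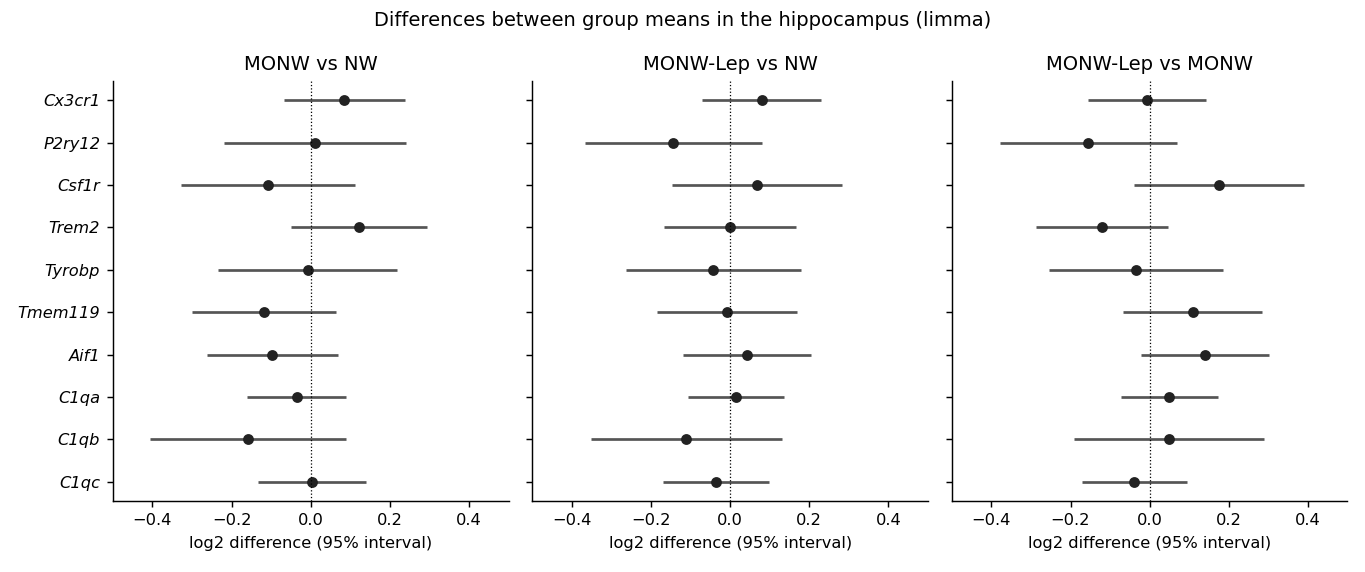
Difference of group means (x axis, log2) for each microglia gene (rows) in the 3 hippocampal comparisons, with points for the limma estimate and lines for its 95% interval. All 30 intervals include 0 and none reaches beyond -0.41 or 0.39.

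Over the 10 genes, the median difference was -0.02 in MONW versus NW (4 of 10 above 0), -0.004 in MONW-Lep versus NW (5 of 10) and 0.02 in MONW-Lep versus MONW (5 of 10), beside medians over all genes of -4e-04, -0.004 and -0.003. In the same order, 49.9%, 47.7% and 48.2% of all genes were above 0. Of 42 other genes of microglia and brain macrophages, 34 were measured. In MONW versus NW, 0 of the 34 passed the unadjusted threshold. In MONW-Lep versus NW, 2 were lower, *Hcls1*, a cytoskeletal adaptor of blood-lineage cells (-0.20), and *Runx1*, a transcription factor of that lineage (-0.19). In MONW-Lep versus MONW, *Fcgr1a*, an Fc receptor for IgG, was higher (0.24) and *Lpcat2*, an enzyme of phospholipid remodelling, lower (-0.17). All 4 stood at adjusted p of 0.999 or more in limma.

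Of 33 measured genes of the activated state of microglia, 1 passed in MONW versus NW, *B2m*, the light chain of MHC class I, which was lower (-0.15, from 10.16 to 10.02). In MONW-Lep versus NW, 2 passed and were lower, *Lgals3*, encoding galectin-3 (-0.34), and the cytokine gene *Il6* (-0.23). None of the 33 passed in MONW-Lep versus MONW, and their median differences were -0.06, -0.02 and 0.04 in the order of the comparisons. Of the 33, 8, 13 and 23 were above 0 in that order, and 9, 13 and 18 without MONW replicate 7. Of 29 measured genes of the complement pathway beyond C1q, 2 passed in MONW versus NW, *C4b*, which C1q leads to be cleaved (6.13 ± 0.16 in NW, 5.86 ± 0.19 in MONW, difference -0.27), and *Cd93*, once described as a C1q receptor (-0.21). Both were higher in MONW-Lep than in MONW (0.22 and 0.19), a comparison that rests on the same 8 MONW arrays. Their adjusted p was 0.999 in limma, and the difference of MONW-Lep from NW was -0.05 and -0.02. In the order of the comparisons, 5, 13 and 24 of the 29 complement genes were above 0 (medians of -0.08, -0.02 and 0.06). Without MONW replicate 7 these counts were 7, 13 and 22. No list was tested as a set.

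Of 26 measured ligands and partners of the receptors, 2 passed in MONW versus NW. *Nt5e*, the enzyme that turns AMP into adenosine, was higher (0.24), and *Cd300lb*, a receptor that signals through Tyrobp in mice, lower (-0.22). None passed in the other comparisons. Of 9 measured markers of border-associated macrophages, the macrophages of the meninges and vessels, *F13a1* was lower in MONW than in NW (-0.31) and *Pf4* higher in MONW-Lep than in MONW (0.40). *Pf4* is also a platelet gene, and 2 of 6 platelet markers, *Pf4* and *Ppbp*, were higher in that comparison. Apart from *B2m*, the means of all these genes were below 7.96, the lowest 95th percentile of the negative control rows in a hippocampal array. Of the lists of other cell types in MONW versus NW, 13 of 13 oligodendrocyte and myelin markers and 7 of 7 striatum markers were above 0, with 3 and 1 past the threshold. Of all genes, 49.9% were above 0 there and 48.2% in MONW-Lep versus MONW. In MONW-Lep versus MONW, 0 of 13 and 0 of 7 were above 0, with 3 and 0 lower past the threshold, and 12 of 13 endothelial and mural markers were above 0, with 3 past the threshold. MONW replicate 7 was the highest MONW array in both lists (10.86 for the oligodendrocyte and 9.25 for the striatum markers, against MONW medians of 10.18 and 6.93). Without it, 13 of 13 oligodendrocyte but 2 of 7 striatum markers were above 0 in MONW versus NW (2 and 0 past the threshold), and 0 of 13 and 3 of 7 in MONW-Lep versus MONW (0 and 0 past it). Also without it, *B2m*, *F13a1* and *Cd93* did not pass in MONW versus NW, nor *Fcgr1a*, *Lpcat2*, *Cd93* and *Ppbp* in MONW-Lep versus MONW. Genes of the microglia, activation, complement and partner lists that passed only without it were *Mertk* (0.17) and *C5ar1* (-0.29) in MONW versus NW. In MONW-Lep versus MONW they were *Cst7* (0.27), *Cfp* (0.15) and *Nt5e* (-0.22). The part of the lists of other cell types in the values above was not tested.

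PBMC were then set beside the hippocampus to see which of these genes the blood shares. Averaged over the 3 groups, 5 genes had higher values in PBMC. *Tyrobp* lay at 6.40 to 7.26 in the hippocampus and at 9.52 to 10.97 in PBMC (difference of hippocampus from PBMC -3.47, 95% interval -3.64 to -3.30). The difference was -1.999 for *Csf1r*, -1.33 for *Aif1*, -0.98 for *P2ry12* and -0.37 for *Cx3cr1* (limma adjusted p of 0.0011 or less). In the hippocampus *Tyrobp*, *Csf1r* and *Aif1* passed the 95th percentile of the negative control rows in 0 of 25 arrays, so that their level there is only a bound. With each hippocampal array at that percentile, the PBMC mean of *Tyrobp* (10.33, above the PBMC percentile in 25 of 25 arrays) was 4.01-fold higher on the deposited scale. That of *Csf1r* (9.08, above it in 15 of 25) was 1.69-fold higher. The percentile was itself higher in PBMC (8.99 in the median array) than in the hippocampus (8.36). These folds therefore include a difference of background and are no lower limit for the RNA. *Aif1* gives no fold, as its PBMC mean of 8.25 (above the percentile in 3 of 25 arrays) is under the bound of 8.33. In PBMC *P2ry12* passed the percentile in 15 arrays and *Cx3cr1* in 10, against 19 hippocampal arrays for *Cx3cr1*. The median array placed *Cx3cr1* above 95.2% of the negative control rows in the hippocampus and above 93.2% in PBMC. Set against those rows, *Cx3cr1* was therefore not higher in PBMC.

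The 3 C1q genes had higher values in the hippocampus (limma adjusted p of 1.64e-11 or less), with means of 7.71 against 5.68 for *C1qb*, 8.07 against 7.56 for *C1qa* and 7.40 against 6.91 for *C1qc*. All 3 were below the percentile in every array of both tissues, apart from *C1qa* in 1 hippocampal array, and no fold is given for them.

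*Tmem119* and *Trem2*, also below the percentile in all 50 arrays, differed by 0.16 (limma adjusted p = 0.00798) and 0.10 (adjusted p = 0.0781), and both turned to the other sign when the 50 arrays were normalized again (-0.009 and -0.074) or centred on their medians (-0.015 and -0.078). *Trem2* passed an adjusted p under 0.05 without NW replicate 4 (0.12), MONW replicate 3 (0.12), MONW replicate 7 (0.11) or MONW-Lep replicate 2 (0.11). Of all 15049 genes, 84.3% passed an adjusted p under 0.05 in this contrast, 36.5% higher and 47.8% lower in the hippocampus, and the median gene lay 0.10 lower there. The mean of the negative control rows was also lower in the hippocampus (5.15 to 5.45) than in PBMC (5.99 to 6.63), and whether the authors normalized both tissues together was not stated. *C1qb* in PBMC lay above 34.7% of those rows in the median array, *Tmem119* above 54.3% and *Trem2* above 61.8%, and in blood these 3 genes, *C1qa* and *C1qc* passed their 95th percentile in 0 of 25 arrays.

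**Figure D3:**
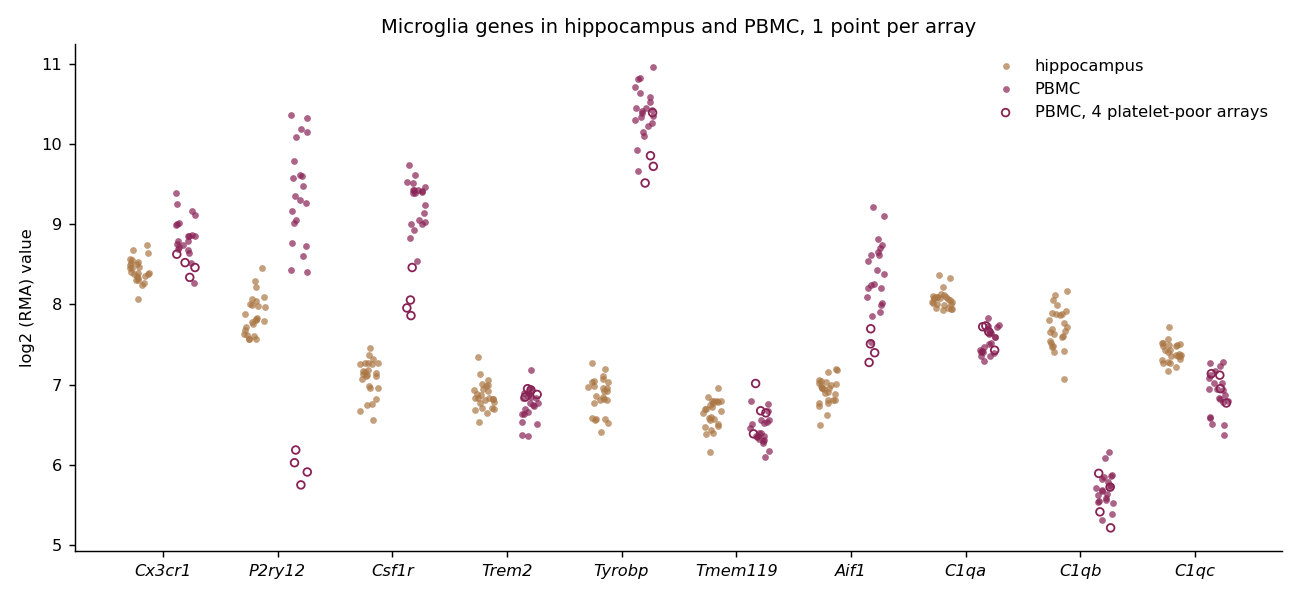
Level of each microglia gene (y axis, log2 RMA value) in the 25 hippocampal and 25 PBMC arrays, 1 point per array, with open points for the 4 PBMC arrays poor in platelet markers. *Tyrobp*, *Csf1r*, *Aif1*, *C1qa* and *C1qb* form bands that do not overlap between the tissues, and the open *P2ry12* points (5.75 to 6.18) lie apart from the other 21 (8.40 to 10.36).

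In PBMC, 4 arrays were poor in platelet markers, NW replicate 6, MONW replicate 7 and MONW-Lep replicates 5 and 8. The group tests used all 25 arrays, and values without the 4 were added after the values were seen. The mean of 6 platelet markers was 7.38 to 7.85 in them and 9.27 to 10.91 in the other 21. *P2ry12*, the target of antiplatelet drugs, lay at 5.75 to 6.18 in the 4 and at 8.40 to 10.36 in the 21, and *Csf1r* at 7.86 to 8.46 and 8.54 to 9.74, so that neither range overlapped. The other 8 genes overlapped. Within the 21 arrays and after removal of group means, *P2ry12* still followed the platelet markers (r = 0.946, rho = 0.91, permutation p = 1e-05 for each, the smallest that 100000 permutations give, adjusted p = 0.0007 over 70 correlations, r = 0.932 without the 2 arrays farthest from the median). With the 19 blood monocyte markers the correlation did not pass (r = 0.126, rho = 0.0143, permutation p = 0.593 and 0.954, adjusted p = 0.82 and 0.994).

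*Csf1r* within the 21 arrays followed the monocyte markers (r = 0.845, rho = 0.796, permutation p = 2e-05 and 7e-05, adjusted p = 0.0007 and 0.00245, r = 0.772 without the 2 farthest arrays) and did not pass with the platelet markers (r = 0.183, rho = 0.212, permutation p = 0.425 and 0.381, adjusted p = 0.777 and 0.682). With the 4 arrays included, *Csf1r* also passed with the platelet markers and *P2ry12* with the monocyte markers (adjusted permutation p = 0.00117 and 0.00272 for r), but the 4 formed a cluster of their own, so no pooled r is given. *Tyrobp*, *Cx3cr1* and *Aif1* also varied with the monocyte markers over the 21 arrays (r = 0.767, 0.731 and 0.701, rho = 0.727, 0.691 and 0.668, permutation p = 0.00044, 0.00177 and 0.0004 for r and 0.0006, 0.00165 and 0.0023 for rho, adjusted p of 0.0268 or less, r = 0.609, 0.562 and 0.669 without the 2 farthest arrays). *Cx3cr1* and *Tyrobp* also ran against the mean of the negative control rows (r = -0.614 and -0.634, rho = -0.648 and -0.561, permutation p = 0.00388 and 0.00335 for r and 0.00409 and 0.0136 for rho, adjusted p = 0.0303 for both r and 0.0409 and 0.119 for rho), and the part of this background in the correlations was not tested. *Tyrobp* also varied with the T cell markers (r = 0.692, rho = 0.67, permutation p = 0.00109 and 0.00217, adjusted p = 0.0153 and 0.0268, r = 0.628 without the 2 farthest), and *C1qa* ran against the monocyte markers (r = -0.627, rho = -0.539, permutation p = 0.00389 and 0.0189, adjusted p = 0.0303 and 0.133, r = -0.586 without the 2 farthest). In all, 9 of the 70 correlations passed by the adjusted p of r.

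**Figure D4:**
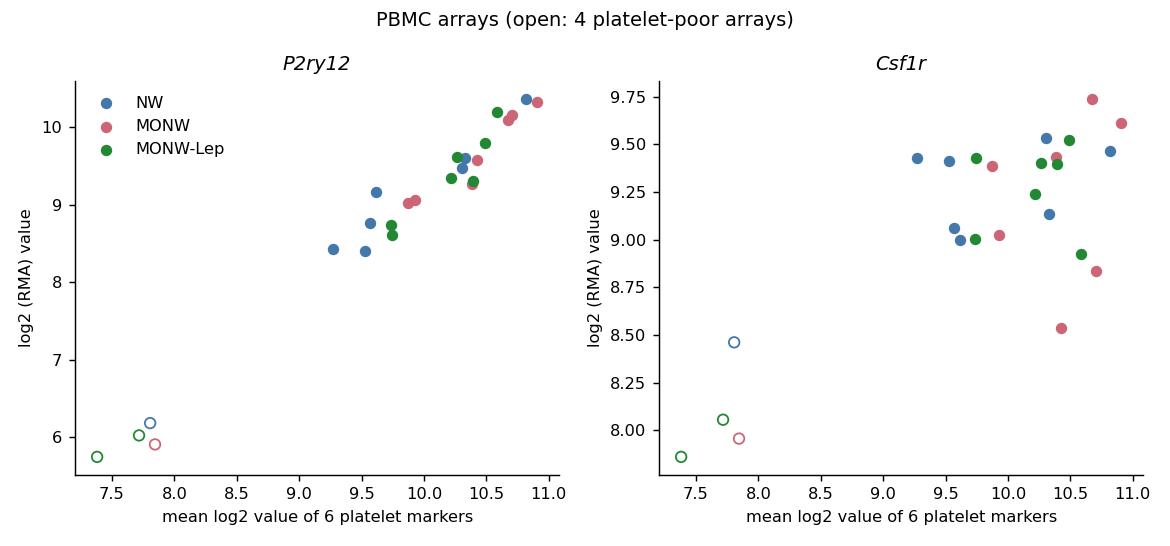
*P2ry12* and *Csf1r* (y axes, log2 RMA value) against the mean of 6 platelet markers (x axis, log2) in the 25 PBMC arrays, coloured by group, with open points for the 4 platelet-poor arrays. *P2ry12* climbs along the whole axis, while *Csf1r* among the filled points has an r of 0.183.

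Between the groups, 1 of 30 PBMC tests passed the unadjusted threshold. For all genes in PBMC, 3% passed in MONW versus NW, 4.75% in MONW-Lep versus NW and 2.45% in MONW-Lep versus MONW, with 452, 715 and 369 genes, and 0 at an adjusted p under 0.05 in limma. The gene was *C1qb* in MONW-Lep versus NW, with values of 5.58, 5.78 and 6.08 in NW and 5.21, 5.62 and 5.85 in MONW-Lep (lowest, median, highest). The ranges overlapped, and 1 of 9 MONW-Lep rats was above the NW median. The difference was -0.24 (95% interval -0.44 to -0.03, limma p = 0.0252, adjusted p = 0.981, exact p = 0.019). It was lost without the 4 platelet-poor arrays (-0.18), without NW replicate 2 (-0.19), without MONW-Lep replicate 5 (-0.19) and without MONW-Lep replicate 6 (-0.20). *C1qb* lay above 21.8% to 50.8% of the negative control rows in PBMC, and over the 21 other arrays its r with the monocyte markers was 0.0287 (rho = -0.0545, permutation p = 0.917 and 0.825, adjusted p = 0.975 and 0.962).

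*P2ry12* had the widest spread of the 10 in PBMC, with intervals from -1.88 to 1.71 for its differences. The difference was 0.38 in MONW versus NW and -0.20 in MONW-Lep versus NW, and without the platelet-poor arrays the second was 0.20 (exact p = 0.557 and 0.805 with all arrays). In MONW-Lep versus MONW it was -0.58, and -0.27 without those arrays. For the other 8 genes the differences ran from -0.27 (*Aif1*, MONW-Lep versus NW) to 0.17 (*C1qc*, MONW versus NW). The blood monocyte markers had medians of 9.67 in NW, 9.59 in MONW and 9.46 in MONW-Lep. In MONW-Lep versus NW, 5 of the 19 were lower past the threshold and 1 of 19 was above 0, against 52.8% of all genes. Without the platelet-poor arrays 2 were lower past it and 5 of 19 were above 0. A diet or leptin effect that differs between the tissues was tested directly for each gene and comparison, and 0 of 30 passed an unadjusted p under 0.05 in limma, where 3.24%, 3.29% and 2.49% of all genes did. The smallest p was that of *Trem2* in MONW-Lep versus MONW (-0.23, 95% interval -0.48 to 0.02). It passed when the arrays of both tissues were left out for MONW replicate 3 (-0.28), MONW replicate 7 (-0.28), MONW-Lep replicate 3 (-0.27) or MONW-Lep replicate 6 (-0.26), and *Aif1* passed in the same comparison without MONW replicate 7 (0.53).

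The last question was how far the genes varied together over animals. Over the 45 pairs and 25 arrays, after removal of group means, r had a median of 0.02 and ran from -0.46 to 0.64, with 23 pairs above 0. At an unadjusted permutation p under 0.05 stood 7 pairs, and 1 passed after adjustment over the 45. This was *Trem2* with *C1qa* (r = 0.64, rho = 0.58, permutation p = 0.00035 and 0.00364, adjusted p = 0.0157 and 0.0819, r = 0.539 without the 2 farthest arrays). The value hardly moved without MONW replicate 7 (r = 0.645). In these 25 arrays *Trem2* passed the 95th percentile of the negative control rows in 0 and *C1qa* in 1. In each group the same rat was highest in both genes, with *Trem2* and *C1qa* at 7.13 and 8.36 in NW replicate 7, at 7.34 and 8.11 in MONW replicate 8 and at 7.06 and 8.33 in MONW-Lep replicate 5.

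*Csf1r* and *C1qb* had the highest rho of the 45 pairs (r = 0.509, rho = 0.635, permutation p = 0.0196 and 0.00176, adjusted p = 0.247 and 0.0792), and *Csf1r* ran against *Tmem119* (r = -0.456, rho = -0.482, permutation p = 0.0329 and 0.0248, adjusted p = 0.247 and 0.316). *Trem2* and its adaptor *Tyrobp* had an r of -0.0646, and among the C1q genes r was -0.142 for *C1qa* with *C1qb*, 0.161 for *C1qa* with *C1qc* and 0.019 for *C1qb* with *C1qc*. Set beside the lists of other cell types, *Csf1r* varied with the neuron markers (r = 0.727, rho = 0.778, permutation p = 0.00062 and 0.00015, adjusted p = 0.0179 and 0.012 over 80 correlations, r = 0.683 without the 2 farthest arrays) and the astrocyte markers (r = 0.678, rho = 0.688, permutation p = 0.00036 and 0.00038, adjusted p = 0.0179 and 0.0147, r = 0.604 without the 2 farthest). *C1qb* varied with the neuron markers (r = 0.669, rho = 0.687, permutation p = 0.00067 and 0.00055, adjusted p = 0.0179 and 0.0147, r = 0.607 without the 2 farthest). These list correlations were added after the values were seen, and the part of these cell types or of background in the levels of the 2 genes was not tested. *Csf1r* and *C1qb* passed the 95th percentile of the negative control rows in 0 of the 25 arrays. In all, 3 of the 80 correlations passed by the adjusted p of r, and 6 did without MONW replicate 7.

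Within the 21 PBMC arrays, *Cx3cr1*, *Csf1r* and *Tyrobp* varied together (r = 0.895 for *Cx3cr1* with *Csf1r*, 0.834 for *Csf1r* with *Tyrobp* and 0.766 for *Cx3cr1* with *Tyrobp*, rho = 0.875, 0.797 and 0.729, permutation p of 0.00042 or less, adjusted p of 0.00472 or less, r = 0.814, 0.799 and 0.603 without the 2 farthest arrays). *Trem2* and *C1qa* again varied together (r = 0.69, rho = 0.718, permutation p = 0.00063 and 0.00097, adjusted p = 0.00567 and 0.00873), with r = 0.697 without the 2 farthest arrays. *Aif1* ran against *C1qa* (r = -0.829, rho = -0.819, permutation p = 2e-05 and 3e-05, adjusted p = 0.0003 and 0.00045, r = -0.815 without the 2 farthest). Of the 25 PBMC arrays, *Trem2* and *C1qa* passed the 95th percentile of the negative control rows in 0 and *Aif1* in 3. The part of background in the correlations of these genes was not tested. In all, 4 pairs with r above 0 and 1 below 0 passed after adjustment over 45, and 10 and 3 did with the 4 platelet-poor arrays included. With arrays of both tissues matched by group and number, which may or may not mark the same rat, 0 of 10 genes had an unadjusted permutation p under 0.05 (smallest p = 0.113, *C1qc*, r = 0.304, rho = 0.311, adjusted p = 0.683).

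**Figure D5:**
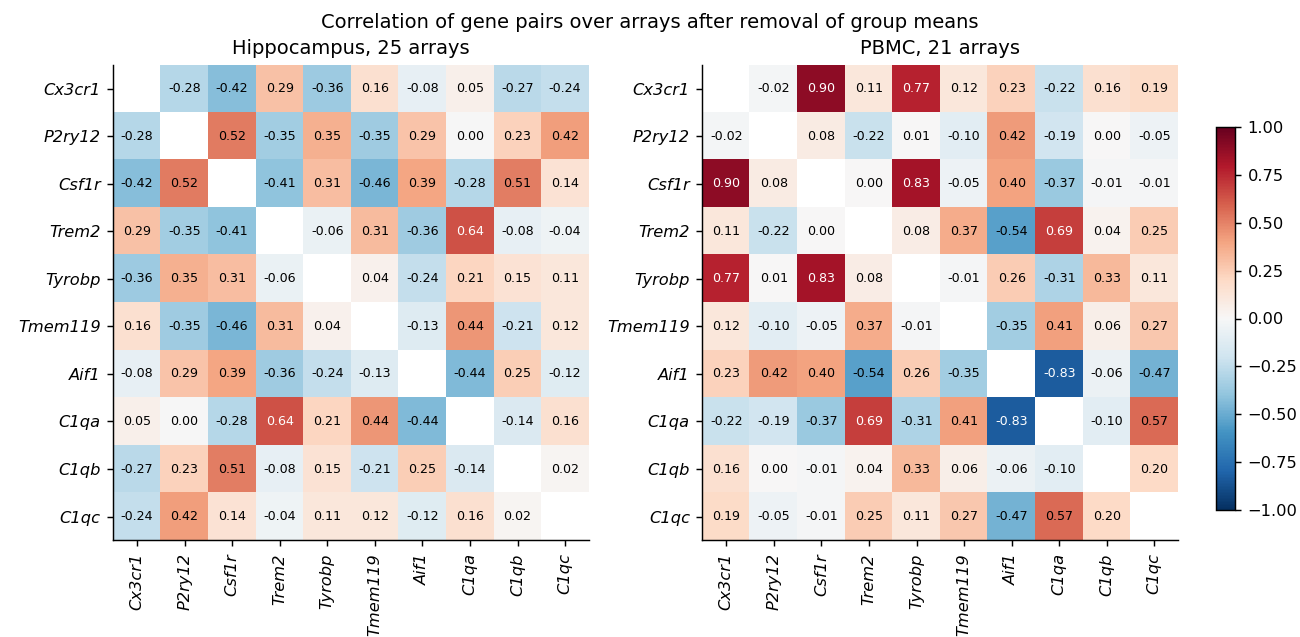
Pearson r of each pair of microglia genes (rows and columns) over the 25 hippocampal arrays and over 21 PBMC arrays without the platelet-poor ones, after removal of group means, on a colour scale from -1 to 1. *Trem2* with *C1qa* is high in both panels (0.64 and 0.69), while the block of *Cx3cr1*, *Csf1r* and *Tyrobp* is high in PBMC (0.766 to 0.895) but not in the hippocampus (-0.42 to 0.31). *Trem2* and *C1qa* lay below the 95th percentile of the negative control rows in both tissues, apart from *C1qa* in 1 hippocampal array.

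As a description with no test, the 10 other genes whose hippocampal values were most like the mean of the 10 (each scaled to its SD, 25 arrays, group means removed) were *Ncr1* (r = 0.73), *Ppp1r42* (0.69), *Rnf44* (0.68), *Rdh10* (0.66), *Ifgga2l1* (0.62), *Pipox* (0.62), *Rpl34* (0.61), *Mrpl14* (0.60), *Mup5* (0.59) and *Prr7* (0.59). None of them was on the lists of microglia genes. Apart from *Rpl34* (11.1), their levels were below 7.96, the lowest 95th percentile of the negative control rows in a hippocampal array. *Ncr1* (5.35), *Ppp1r42* (4.57) and *Pipox* (5.30) lay no higher than the median of those rows (5.35 in the median array). Of the 10 microglia genes themselves, which form part of the mean of the 10, *P2ry12* was closest to it (r = 0.54) and *Cx3cr1* farthest (r = -0.045).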

How the data were processed

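Total RNA of 25 hippocampal and 25 PBMC samples was hybridised to Rat Clariom S arrays, and the deposited values are log2 intensities that the authors made by RMA. The submitters' processing notes name RMA, R 4.0.4 and limma. Neither the annotation version nor joint normalization of the tissues was given in the sources used here. RMA fits arrays to a common distribution, so a shift shared by most genes is removed. Of 23188 clusters that are not controls, the 15049 with 1 symbol were tested in each tissue with limma 3.58.1 (R 4.3.3), with 1 coefficient per group, at an unadjusted p under 0.05 and after Benjamini-Hochberg adjustment. A model over 50 arrays gave the tissue contrast and its interactions. It treated the 50 arrays as independent, though both tissues came from the same cohort. A block by group and number was an alternative only, with a consensus correlation of 0.018. Exact permutation tests and correlations (100000 permutations within groups) used Python 3.11.15 and scipy 1.17.1. Replicates are rats, in groups of 8, 8 and 9. The fits were tested on simulated data.

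The genes, lists and tests were chosen with earlier results of these data known. All 10 microglia genes are named. Also named, up to 4 per list and comparison, are genes past the unadjusted threshold in the hippocampus on the microglia, activation, complement, partner, border-associated macrophage and platelet lists. The blood monocyte, neutrophil, T cell and B cell lists held *Nr4a1* (0.37), *Cxcr2* (-0.25) and *Cd79b* (-0.37) past it in MONW versus NW. *Nr4a1* and *Cd79b* did not pass there without MONW replicate 7. In MONW-Lep versus MONW they held *Zap70* (0.22) and *Cd79b* (0.37). Oligodendrocyte, striatum and endothelial genes were not named. The correlations with marker lists, the antigenomic background rows, the bounds between tissues and the values without platelet-poor arrays or, for lists, without hippocampal MONW replicate 7 were added after the values were seen. Alternatives were other gene filters, normalization again, median centring, trend and robust eBayes, array weights, the replicate block, fits of 2 groups and leaving out each array. The number of arrays limits the precision.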

Additional observations from a re-analysis of the deposited data

Results flagged for a closer look

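Of the 60 sets of values (10 genes, 6 groups), 5 held an array far from the others of its group by Dixon's test at its 95% level, each in a group of 8, and by chance alone a few of so many sets would be picked. In PBMC, *P2ry12* was 6.18 in NW replicate 6 (the other NW arrays 8.40 to 10.36) and 5.91 in MONW replicate 7 (the others 9.02 to 10.33), and both arrays are among the 4 poor in platelet markers. *Tmem119* was 7.01 in the same NW replicate 6 (the others 6.29 to 6.56). *Trem2* in PBMC was 6.36 in NW replicate 3, below the others at 6.69 to 6.96. In the hippocampus, *C1qa* was 8.36 in NW replicate 7, above the others at 7.95 to 8.09, and that rat was also the highest of NW in *Trem2*.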

How the results depend on the processing

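In the hippocampus 0 of the 10 microglia genes passed the unadjusted threshold in MONW versus NW and in MONW-Lep versus NW under any alternative. In MONW-Lep versus MONW the count ran from 0 to 2 when 1 array was left out, with 2 without MONW replicate 1 (*Aif1* and *Csf1r*) and 1 without MONW replicate 3 or MONW-Lep replicate 5 (*Aif1*). Same-numbered arrays of different groups correlated above 0.1 in 2 to 6 of 8 pairs, with a median r of 0.015 to 0.170. Arrays with different numbers were not compared in this way, so whether the numbers mark a shared factor is not known. With the replicate block the count was 1 (*Csf1r*, 0.202), and the other hippocampal counts stayed at 0. In PBMC, the count for MONW-Lep versus NW was 0 without the platelet-poor arrays and 0 among genes above the negative controls, where *C1qb* was not tested, and 0 to 1 when 1 array was left out.

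The number of all genes past the threshold was 755, 575 and 741 in the hippocampus and 758, 1123 and 614 in PBMC with clusters that have no symbol (MONW versus NW, MONW-Lep versus NW, MONW-Lep versus MONW), since more clusters were tested, and 101, 35 and 90, and 48, 102 and 33, among genes above the negative controls, where fewer were. It was 868 in PBMC MONW versus NW without the platelet-poor arrays. Leaving out 1 array gave 414 to 715 in hippocampal MONW versus NW (715 without MONW replicate 8), 372 to 742 in PBMC MONW versus NW and 527 to 1131 in PBMC MONW-Lep versus NW (742 and 1131 without NW replicate 6).

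None of the differences that turned sign was called, apart from the tissue contrast of *Tmem119*. Normalizing again turned hippocampal *P2ry12* (-0.003) and *C1qc* (-0.002) in MONW versus NW, *Trem2* (-0.004) in MONW-Lep versus NW and *Cx3cr1* (0.002) in MONW-Lep versus MONW, the tissue contrast of *Tmem119* (-0.009) and *Trem2* (-0.074), and the tissue interaction of *Csf1r* in MONW versus NW (-0.006). Centring turned *Trem2* in hippocampal MONW-Lep versus NW (-0.002) and the tissue contrast of *Tmem119* (-0.015) and *Trem2* (-0.078). Array weights turned *Cx3cr1* (0.026) and *C1qb* (-0.01) in hippocampal MONW-Lep versus MONW. Without the platelet-poor arrays, *P2ry12* (0.201) and *Tmem119* (0.019) turned in PBMC MONW-Lep versus NW and *Csf1r* (0.05) in MONW-Lep versus MONW. The cause was not tested.

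Leaving out 1 array gave ranges that crossed 0 as follows. In hippocampal MONW versus NW they were -0.064 to 0.065 for *P2ry12*, -0.054 to 0.047 for *Tyrobp*, -0.054 to 0.006 for *C1qa* and -0.039 to 0.038 for *C1qc*. In MONW-Lep versus NW they were -0.038 to 0.032 for *Tmem119*, -0.041 to 0.045 for *Trem2*, -0.088 to 0.013 for *Tyrobp* and -0.016 to 0.055 for *C1qa*. In MONW-Lep versus MONW they were -0.029 to 0.034 for *Cx3cr1*, -0.085 to 0.02 for *Tyrobp*, -0.034 to 0.088 for *C1qb* and -0.074 to 0.003 for *C1qc*. In PBMC MONW versus NW they were -0.164 to 0.121 for *Aif1*, -0.136 to 0.024 for *Cx3cr1* and -0.226 to 0.037 for *Csf1r*. In PBMC MONW-Lep versus NW they were -0.574 to 0.156 for *P2ry12*, -0.077 to 0.047 for *Tmem119*, -0.016 to 0.099 for *Trem2* and -0.04 to 0.075 for *C1qc*. In PBMC MONW-Lep versus MONW they were -0.12 to 0.04 for *Cx3cr1*, -0.243 to 0.056 for *Csf1r*, -0.144 to 0.044 for *Tyrobp* and -0.038 to 0.024 for *C1qa*. For the interaction with tissue they were -0.208 to 0.091 for *Aif1*, -0.141 to 0.154 for *Csf1r* and -0.144 to 0.05 for *C1qb* in MONW versus NW. In MONW-Lep versus NW the interaction ran over -0.274 to 0.38 for *P2ry12*, -0.068 to 0.08 for *Tmem119*, -0.111 to 0.003 for *Trem2* and -0.093 to 0.008 for *C1qc*, and in MONW-Lep versus MONW over -0.064 to 0.145 for *Cx3cr1* and -0.12 to 0.126 for *Tyrobp*.

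Signal over background limits these values. Of the 10 genes, 1 in the hippocampus (*Cx3cr1*) and 4 in PBMC (*Cx3cr1*, *P2ry12*, *Csf1r* and *Tyrobp*) passed the filter on negative controls, which needed at least 8 arrays above their 95th percentile.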
